A study of Mus musculus with 10 samples.

Results

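RNA of the AMPK-related kinases that LKB1 activates was compared between lung squamous cell carcinomas that had lost Lkb1 and lungs of control mice. The 10 kinases listed were Mark1, Mark2, Mark3, Mark4, Sik1, Sik2, Nuak1, Nuak2, Brsk1 and Snrk, listed as members of the kinase family downstream of LKB1. Array probes were paired with them by accession, and the probe with the highest mean signal stood for each gene. Of the 10, 8 were paired with a probe, out of 19096 genes so paired. Mark1 and Brsk1 were paired with no probe and have no value here. The 8 measured kinases had 12 probes among 41174.

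The WT group was 5 samples of whole lung from Lkb1f/f mice, which carry the floxed gene and no Cre. The SCC group was 5 samples of whole lung tumor from CCSPiCreLkb1f/f mice, in which the Club Cell Secretory Protein promoter drives iCre in airway epithelium. Both groups were of strain B6.129, 13 months old and untreated. Cre is thus directed to that epithelium, while a whole tumor also holds stroma, vessels and immune cells. The floxed gene, Stk11 (Lkb1), was paired with no probe through the accessions used, so the deletion was not checked here. The labels do not say that each replicate came from a separate mouse, so p-values measure the spread between these samples. Each sample was read on 1 single-colour array.

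LKB1 is a serine/threonine kinase that works in a complex with a STRAD pseudokinase and the scaffold MO25. It switches on AMPK and a family of related kinases by phosphorylating a threonine in their activation loop. MARK kinases phosphorylate microtubule-associated proteins and act in cell polarity, SIK kinases hold CREB coactivators and class IIa histone deacetylases in the cytoplasm, and NUAK kinases act on a myosin phosphatase and on cell adhesion. Because LKB1 controls these kinases by phosphorylation, RNA levels give no measure of their activity, which was not measured on these arrays.

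Values are log2 of the quantile-normalized signal, and differences are SCC minus WT on that scale. A probe passed where limma gave an adjusted p below 0.05 over the 30374 tested probes. Levels are not compared between probes, since probes bind with different strength.

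Of the 8 measured kinases, 6 passed, against 49.0% of all tested probes. Mark2, Sik1 and Nuak2 rose in SCC, where 22.4% of all tested probes passed as higher. Sik2, Nuak1 and Snrk fell, Sik2 not under another scaling of the arrays, where 26.6% passed as lower. Mark3 and Mark4 did not pass. Only Nuak1 also reached a 2-fold difference, which 22.9% of tested probes did. The values of both groups did not overlap for 5 of the 8, Mark2 among them with 4 SCC values, against 37.4% of tested probes. The median difference of the 8 was 0.26, and that of all tested probes was -0.09. With 8 genes against so high a background, nothing particular to the family is read from these counts.

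**Figure D1:**
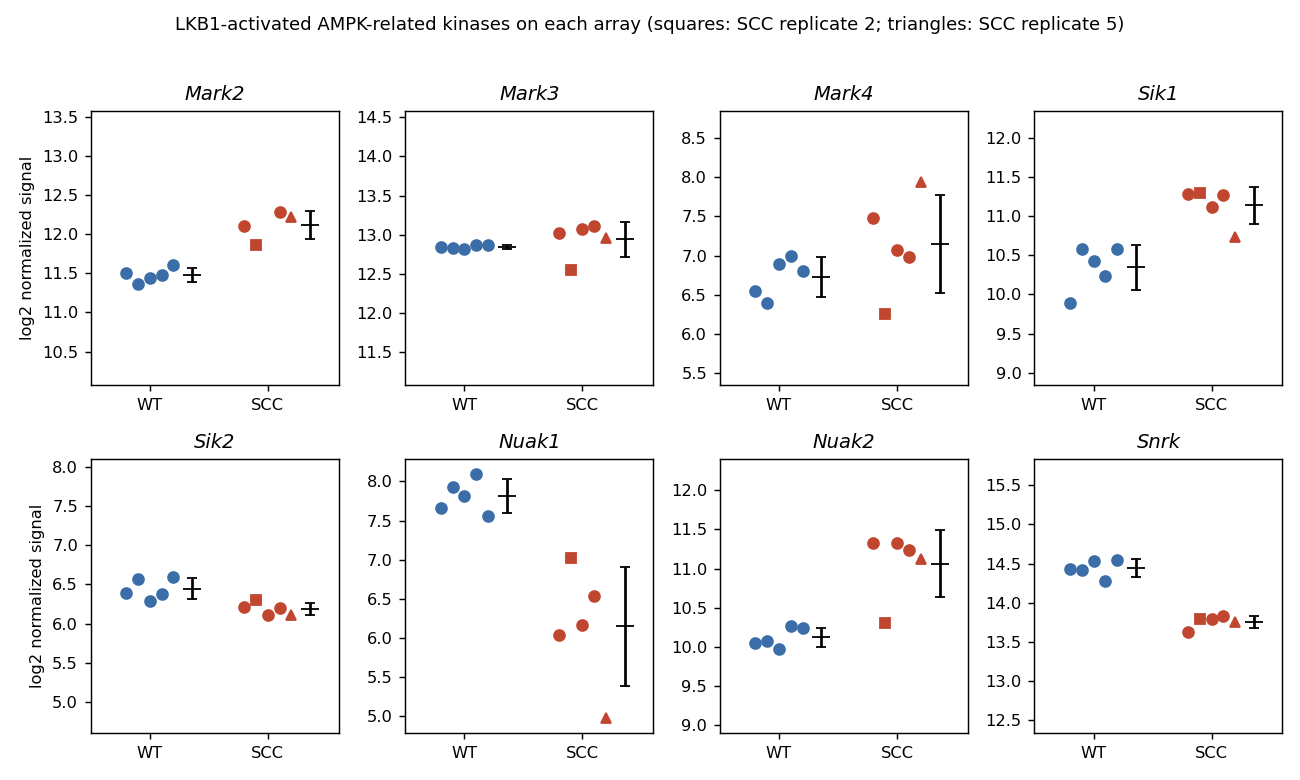
Log2 normalized signal (y axis) of the 8 measured kinases on each WT (blue) and SCC (red) array, 1 point per array, with the mean and SD in black beside each group; every panel spans the same number of log2 units. Squares mark SCC replicate 2 and triangles SCC replicate 5, and Mark2 has 4 SCC points because 1 spot was flagged. Nuak1 lay from 4.98 to 7.03 on SCC arrays and from 7.56 to 8.10 on WT arrays, while the Mark3 groups overlapped.

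For the kinases that passed without overlap and have an entry in the RefSeq promoter table (GRCm38.p6), the 250 bases before the first listed start are shown, since these are the promoters of the genes whose RNA differed. Sik1, Nuak2 and Mark4 have no entry in that table. Each is read along the strand of its gene, and capitals mark the letters TGACG on either strand, the half-site of the cyclic AMP response element.
Mark2, chr19:7341861-7342110, minus strand: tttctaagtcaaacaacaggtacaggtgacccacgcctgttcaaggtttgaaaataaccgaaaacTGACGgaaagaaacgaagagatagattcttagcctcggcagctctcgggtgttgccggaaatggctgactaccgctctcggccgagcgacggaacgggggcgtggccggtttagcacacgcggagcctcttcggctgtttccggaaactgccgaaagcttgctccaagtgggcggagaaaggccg
Nuak1, chr10:84440669-84440918, minus strand: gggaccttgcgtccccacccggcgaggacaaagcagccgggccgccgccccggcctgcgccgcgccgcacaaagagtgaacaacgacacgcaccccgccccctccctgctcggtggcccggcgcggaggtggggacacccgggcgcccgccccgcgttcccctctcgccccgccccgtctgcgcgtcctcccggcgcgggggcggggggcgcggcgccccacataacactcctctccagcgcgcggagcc
Snrk, chr9:122117016-122117265, plus strand: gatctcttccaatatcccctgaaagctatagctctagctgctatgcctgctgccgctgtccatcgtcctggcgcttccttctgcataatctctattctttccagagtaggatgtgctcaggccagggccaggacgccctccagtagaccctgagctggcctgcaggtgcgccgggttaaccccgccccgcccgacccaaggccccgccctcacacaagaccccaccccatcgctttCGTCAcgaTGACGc
The Snrk window held 2 half-sites, beginning 14 and 6 bases before the start, and the Mark2 window held 1. The Nuak1 window held none and was 79.2% G and C, against a median of 52.4% over all windows. The half-site was in 17.8% of 32851 windows of the same length. The full element TGACGTCA, in 1.55% of all windows, and the AP-1 site TGANTCA, in 6.75%, were in none of the windows shown. Mark2 has a second listed start, whose window held 1 AP-1 site and no half-site. Snrk also has a second listed start, farther downstream, whose window holds the same 2 half-sites at its far end. These matches describe the letters, and binding of a factor was not measured.

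Mark2, a MARK kinase also known as Par-1b that helps set apical and basal polarity in epithelia, rose by 0.64 (1.55-fold) in SCC. Its WT arrays read 11.50, 11.37, 11.44, 11.48 and 11.61 in replicate order. Its SCC arrays read 12.10, 11.87, 12.28 and 12.21 for replicates 1, 2, 4 and 5, the spot of replicate 3 having been flagged as an outlier and left out of the fit. All 4 SCC values in the fit lay above all WT values. The deposited log2 values, which lack no array for this probe, gave a difference of 0.53 (adjusted p = 0.0121 by limma). The difference had a standard error of 0.109 and an adjusted p of 0.00146 by limma, and the exact permutation test gave p = 0.0159, the smallest it can give with 4 arrays against 5.

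Mark3, also called C-TAK1 and known to phosphorylate CDC25C, had 3 probes. The brightest read 12.85, 12.83, 12.81, 12.87 and 12.87 on WT arrays. On SCC arrays it read 13.02, 12.55, 13.07, 13.11 and 12.95. The WT values lay close together, and SCC replicate 2 lay below all of them while the other 4 lay above. The difference of 0.09 did not pass (adjusted p = 0.508 by limma), with a 95% interval from -0.16 to 0.35. Without SCC replicate 2 it was 0.19 and passed (adjusted p = 0.0248 by limma).

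The dimmer Mark3 probes did not give the same call. One differed by 0.03 (adjusted p = 0.84 by limma). The other read 10.39, 10.39, 10.42, 10.45 and 10.34 on WT arrays and 10.83, 10.22, 11.11, 11.06 and 11.02 on SCC arrays. It passed at 0.45 (adjusted p = 0.0423 by limma), again with SCC replicate 2 below the WT values and the other 4 above. Probes of a gene may lie in different transcripts.

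Mark4, a microtubule-associated MARK kinase, read 6.54, 6.39, 6.90, 6.998 and 6.81 on WT arrays. On SCC arrays it read 7.47, 6.26, 7.07, 6.99 and 7.94, the lowest on replicate 2 and the highest on replicate 5. The groups overlapped. The difference of 0.42 did not pass (adjusted p = 0.239 by limma), with a 95% interval from -0.21 to 1.04. Without SCC replicate 2 it was 0.64 and passed (adjusted p = 0.0299 by limma), and without SCC replicate 5 it was 0.22 and did not (adjusted p = 0.453 by limma).

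**Figure D2:**
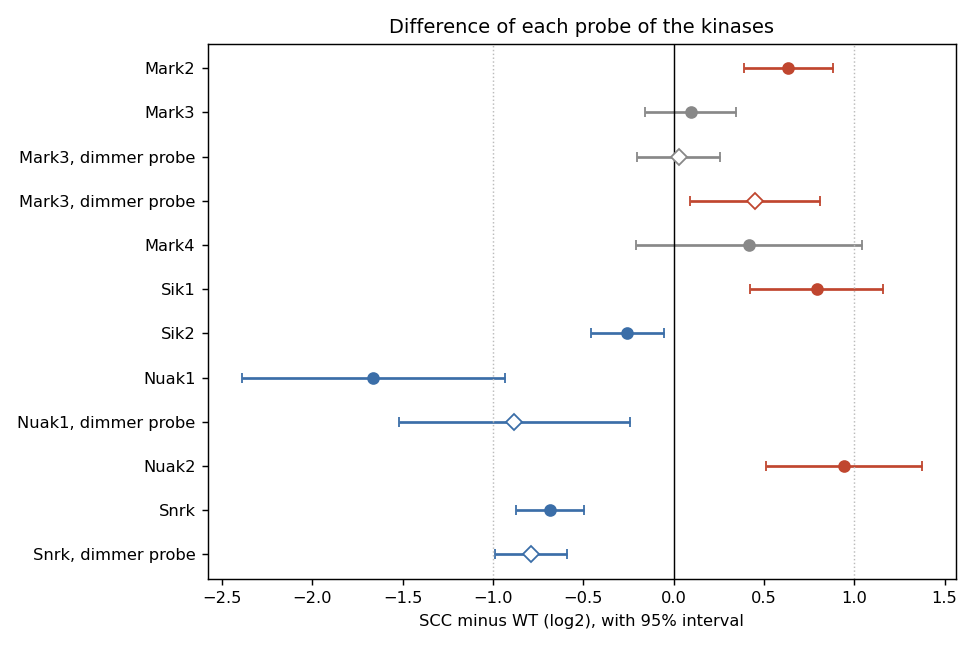
Difference between SCC and WT (x axis, log2) of each of the 12 probes of the 8 kinases, with the 95% interval of the limma fit. Filled circles are the brightest probe of a gene and open diamonds its other probes, coloured red where a probe passed as higher, blue where it passed as lower and grey where it did not pass; dotted lines mark a 2-fold difference. The pair of Snrk probes lay at -0.68 and -0.79, while 1 of the 3 Mark3 probes passed.

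Sik1, a salt-inducible kinase whose own transcription is known to be induced by cyclic AMP signalling, rose by 0.79 (1.73-fold). It read 9.90, 10.58, 10.43, 10.23 and 10.58 on WT arrays. It read 11.28, 11.29, 11.12, 11.27 and 10.73 on SCC arrays. All 5 SCC values lay above the highest WT value, with replicate 5 the nearest to it. The standard error was 0.165, the adjusted p 0.00325 by limma and the exact permutation p 0.00794, the smallest that 5 arrays against 5 can give.

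Sik2, which shares the CRTC and class IIa histone deacetylase substrates of Sik1, fell by 0.26. It read 6.40, 6.56, 6.29, 6.38 and 6.5997 on WT arrays. It read 6.21, 6.30, 6.11, 6.20 and 6.11 on SCC arrays. SCC replicate 2, at 6.30, lay just above the lowest WT value, so the groups overlapped. The adjusted p was 0.0382 by limma and the exact permutation p 0.0159. This call depended on the scaling. Scaled to the 75th percentile of each array, the difference was 0.0085 (adjusted p = 0.982 by limma), and it passed in 2 of the 10 fits that left out 1 array.

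The log2 ratio of Sik1 to Sik2 within an array was higher by 1.05 on SCC than on WT arrays. It was higher by 0.78 with 75th percentile scaling and by 0.87 with normexp background correction. The ratio was chosen with the values known and carries no test.

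Nuak1, also called ARK5, which is known for its part in cell adhesion through myosin phosphatase, fell most of the 8, by 1.66 (3.16-fold). It read 7.66, 7.93, 7.82, 8.10 and 7.56 on WT arrays. It read 6.04, 7.03, 6.16, 6.54 and 4.98 on SCC arrays. All 5 SCC values lay below all WT values, and the SCC values spread widely, from replicate 5 at the bottom to replicate 2 at the top. The standard error was 0.325, the adjusted p 0.00228 by limma and the exact permutation p 0.00794.

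The size of the Nuak1 fall depended on how dim signal was handled. With normexp background correction it was -0.84 and still passed (adjusted p = 0.000308 by limma). The dimmer Nuak1 probe read 6.07, 5.58, 5.57, 5.84 and 5.14 on WT arrays and 4.50, 4.94, 4.16, 4.48 and 5.70 on SCC arrays. It also fell, by 0.88 (adjusted p = 0.0281 by limma). There SCC replicate 5, lowest on the brighter probe, lay within the WT values, and 1 SCC array was not well above background.

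Nuak2, also called SNARK, which is known as a stress-responsive kinase acting on actin and the Hippo pathway, rose most of the 8, by 0.94 (1.92-fold). It read 10.05, 10.07, 9.98, 10.27 and 10.24 on WT arrays. It read 11.33, 10.31, 11.32, 11.24 and 11.12 on SCC arrays. SCC replicate 2 lay barely above the highest WT value and the other 4 lay well above it. The standard error was 0.192, the adjusted p 0.00286 by limma and the exact permutation p 0.00794. Without SCC replicate 2 the difference was 1.13 (adjusted p = 7.96e-06 by limma).

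The NUAK kinases therefore moved in opposite directions, and their log2 ratio within an array, Nuak2 over Nuak1, was higher by 2.61 on SCC arrays and by 1.68 with normexp background correction. This ratio too was chosen with the values known, and no test is given.

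Snrk, a kinase described in endothelium, heart and adipose tissue, fell by 0.68 (1.61-fold). It read 14.43, 14.42, 14.53, 14.27 and 14.54 on WT arrays. It read 13.63, 13.79, 13.79, 13.82 and 13.76 on SCC arrays. The 5 SCC values lay close together, SCC replicates 2 and 5 among them, and well below the WT values. The standard error was 0.0846, the adjusted p 0.000158 by limma and the exact permutation p 0.00794. Its dimmer probe read from 12.97 to 13.34 on WT arrays and from 12.25 to 12.39 on SCC arrays, a fall of 0.79 (adjusted p = 9.08e-05 by limma). Of the 8 kinases, Snrk was the one that still passed once slide entered the fit as a fixed block, at an adjusted p of 0.0217 by limma.

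These are RNA levels of whole tissue, in which fewer cells of a type and less RNA per cell cannot be told apart. Markers of several cell types differed between the groups. The 6 squamous markers, among them Krt5 and Trp63, all rose, their mean log2 level being 3.93 to 4.51 on WT arrays and 11.68 to 15.20 on SCC arrays. The lowest squamous level on SCC arrays was that of replicate 2, the array nearest to the WT mean for Mark2, Sik2, Nuak1 and Nuak2. The other 4 SCC arrays had squamous levels from 14.81 to 15.20. Sik1 differed in this, being highest of the SCC arrays on replicate 2, at 11.29, and nearest to the WT mean on replicate 5. Snrk was nearest to it on replicate 4. The 3 proliferation markers rose as well, at 9.45 on SCC replicate 2 and 10.90 to 11.28 on the other 4, against 7.001 to 8.13 on WT arrays. Neutrophil markers lay at 10.68 on SCC replicate 2 and 13.12 to 13.27 on the other 4, against 10.79 to 11.64 on WT arrays, with 3 of 4 passing as higher.

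Markers of other cell types fell. All 5 endothelial markers fell, with a mean level of 13.68 to 13.92 on WT arrays and 11.28 to 12.27 on SCC arrays. All 4 cardiac muscle markers fell, from 10.66 to 13.998 on WT arrays to 7.98 to 10.48 on SCC arrays, and so did all 3 adipocyte markers, from 6.11 to 9.72 down to 4.68 to 5.88. SCC replicate 2, the SCC array with the highest Nuak1 value on the brightest probe, was also the highest of the SCC arrays for all 3 of these lists, as it was for the alveolar type 2, club cell, fibroblast and B cell lists. It was not the highest for the alveolar type 1, ciliated cell and smooth muscle lists. For the T cell list it was the lowest, at 7.25 against 7.44 to 7.58 on the other SCC arrays. Snrk on that array, at 13.79, lay among the other SCC values. Alveolar type 2 markers, with 3 of 4 passing as lower, lay at 16.17 to 16.26 on WT arrays and 15.40 to 15.93 on SCC arrays. The part of these cell types in the kinase differences was not tested.

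SCC replicate 5 also stood apart technically, with 90.2% of probes well above background against 71.0% to 74.3% on the other 9 arrays. Its values were the lowest of all for Nuak1 and the highest of all for Mark4. SCC replicates 2 and 5 were both left out of 1 fit, a choice made after seeing the data. In that fit 19731 of all tested probes passed, against 14878 with all arrays. Nuak1 there differed by -1.57, Nuak2 by 1.17, Sik1 by 0.88, Mark2 by 0.71, Sik2 by -0.27 and Snrk by -0.69, and each still passed. Mark3, at 0.22, and Mark4, at 0.45, passed in that fit as well (adjusted p = 0.0138 and 0.0449 by limma).

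The arrays lay on 3 slides, of which slide 2 alone held both groups, with WT replicate 5 beside the first 3 SCC replicates. Within slide 2, where the WT side is 1 array, Mark2 differed by 0.38, Mark3 by 0.01, Mark4 by 0.13 and Sik1 by 0.65. There Sik2 differed by -0.39, Nuak1 by -1.15, Nuak2 by 0.75 and Snrk by -0.81. Every direction was that of the full comparison. With slide in the fit, Mark2, Sik1 and Sik2 did not pass (adjusted p = 0.209, 0.196 and 0.165 by limma), nor did Nuak1 and Nuak2 (adjusted p = 0.228 and 0.226 by limma).

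The other genes of the pathway were taken from 7 lists covering 52 genes, of which 50 were paired with a probe and 48 were tested. In all, 11 passed as higher and 18 as lower, which is 60.4% of those tested, with a median difference of -0.18. Over all tested probes 49.0% passed, 22.4% as higher and 26.6% as lower, with a median of -0.09. The lists hold 3 to 13 tested genes each, and nothing particular to a list is read from its counts. With slide in the fit, 4 pathway genes passed as higher and 6 as lower, and 3814 of the 30374 probes passed in all. With 75th percentile scaling 11 passed as higher and 14 as lower. Fits that left out 1 array gave 10 or 11 as higher and 14 to 18 as lower. All of these pathway counts rest on the brightest probe of each gene. Of 25 pathway genes with several tested probes, 11 had the same call on all of them and 14 did not.

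Of the LKB1 complex, 1 of 4 measured genes passed on its brightest probe, the MO25 gene Cab39, at 0.60 (adjusted p = 0.00977 by limma). The other 2 Cab39 probes, at 0.02 and 0.08, did not pass (adjusted p = 0.908 and 0.515 by limma), so no direction is given for it. The brightest probe of the other MO25 gene, Cab39l, did not pass, at -0.04, while its dimmer probe passed as higher, at 0.52 (adjusted p = 0.00255 by limma). On the brightest probes of the 7 AMPK subunits, 1 rose and 4 fell. The brightest probe of Prkaa1, which encodes the α1 catalytic subunit, differed by -0.08 and did not pass (adjusted p = 0.487 by limma). Its dimmer probe rose by 0.88 (adjusted p = 0.00121 by limma), from 8.01 to 8.40 on WT arrays to 8.65 to 9.39 on SCC arrays. The Prkaa1 probes thus gave different calls. Prkaa2, which encodes the α2 catalytic subunit, fell by 2.09, from 10.50 ± 0.116 (SD, n = 5) to 8.42 ± 0.576 (SD, n = 5), with an adjusted p of 0.000118 by limma. Prkab1, a β subunit gene, rose by 1.18 (adjusted p = 0.000623 by limma), and the β subunit gene Prkab2 fell by 0.80 (adjusted p = 6.95e-05 by limma). The γ subunit gene Prkag2 fell by 0.57, and the brightest Prkag1 probe fell by 0.31 while its dimmer probe, at -0.08, did not pass.

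Other kinases of the family moved in both directions. Melk, a mitotic kinase of the AMPK family that does not need LKB1 for its activity, rose by 3.78 (adjusted p = 0.000273 by limma), reading 8.84 on SCC replicate 2 and 11.12 to 11.94 on the other 4 SCC arrays. The brightest Nim1k probe fell by 0.82, and its dimmer tested probe, at -0.65, did not pass. The brightest probe of Sik3, the third salt-inducible kinase, fell by 0.44 (adjusted p = 0.0208 by limma), while both of its dimmer probes rose, by 0.94 and 1.24. No direction is therefore given for Sik3. Brsk2 was too dim to be tested.

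Of the 5 SIK substrates measured, 4 fell and none rose. The class IIa histone deacetylase genes Hdac5 and Hdac7 fell by 1.06 and 1.32 (adjusted p = 8.52e-05 and 1.89e-05 by limma). The CREB coactivator genes Crtc2 and Crtc3 fell by 0.23 and 0.45 (adjusted p = 0.0372 and 0.0125 by limma). Of 9 CREB and CRTC target genes tested, 4 rose and 1 fell. Nr4a2, an orphan nuclear receptor gene, rose by 1.56 (adjusted p = 0.00115 by limma). Crem, Pde4d and Fos rose by 0.81, 0.53 and 0.86 on their brightest probes, and Per1, a clock gene, fell by 0.75. The brightest Ppargc1a probe, at 0.98, did not pass (adjusted p = 0.064 by limma), while its dimmer probe passed as higher, at 1.06 (adjusted p = 0.0233 by limma).

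Of 13 partners and substrates of MARK and NUAK kinases, 1 rose and 5 fell. The fallen genes included 3 that encode microtubule-associated proteins and MARK substrates. Mapt, which encodes tau, fell by 3.38 (adjusted p = 0.000351 by limma), from 14.40 ± 0.0721 (SD, n = 5) to 11.02 ± 1.17 (SD, n = 5). Map2 fell by 2.15 and Map4 by 1.07 (adjusted p = 0.000237 and 1.34e-05 by limma). The polarity genes Pard6b and Prkci fell by 0.60 and 0.30 on their brightest probes. Pard3, of the same polarity complex, did not pass on its brightest probe, at 0.10, while 3 of its 4 dimmer probes passed as higher, by 0.86, 0.99 and 1.31. Cdc25c, a phosphatase of mitotic entry, was well above background on no WT array and on all 5 SCC arrays, and was at least 5.69-fold higher in SCC (adjusted p = 4.91e-05 by limma).

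Of the 7 genes of 14-3-3 proteins, which bind sites phosphorylated by SIK and MARK kinases, 3 rose and 2 fell on their brightest probes. Ywhaz, Ywhag and Sfn rose by 0.73, 0.50 and 0.78, and Ywhaq fell by 0.43, each on its brightest probe. The brightest Ywhab probe fell by 0.41 and its dimmer probe rose by 0.32, so no direction is given for Ywhab. Genes below a 2-fold difference in these lists are named because their counts were small, with their values known.

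**Figure D3:**
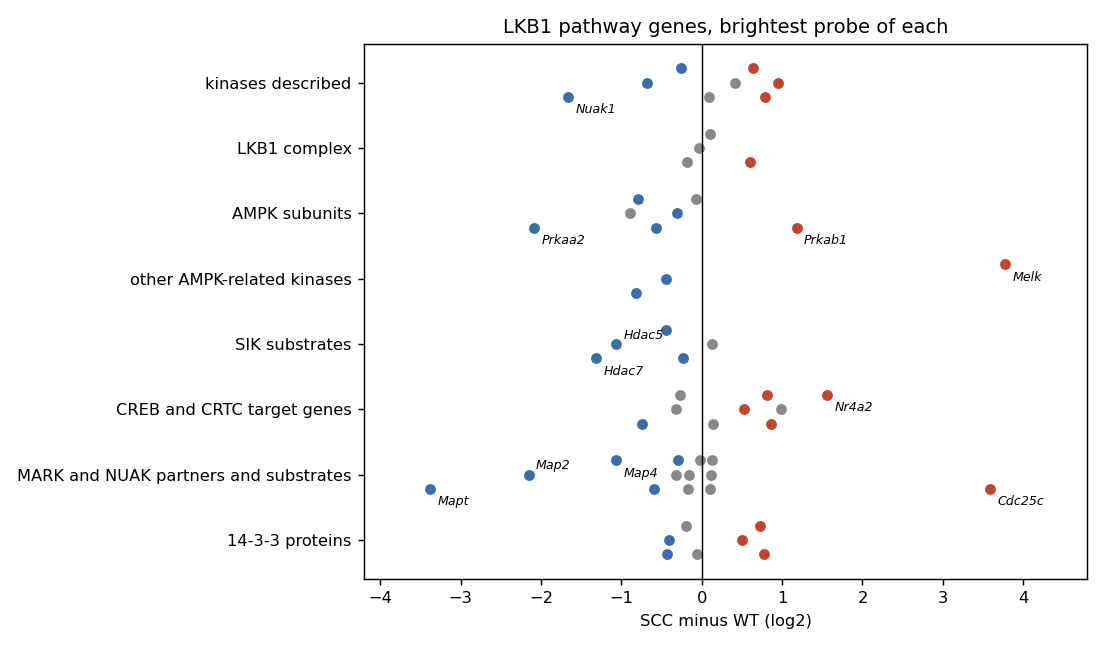
Difference between SCC and WT (x axis, log2) of the brightest probe of each tested gene, by list (y axis), 1 point per gene; the vertical offset within a list has no meaning. Red points passed as higher, blue as lower and grey did not pass, and genes past a 2-fold difference are named. Melk at 3.78 and Mapt at -3.38 lay farthest out, with Cdc25c drawn at its fitted value though no WT array read it well above background.

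The genes whose values over the 10 arrays ran most like Nuak2 were Hmga1, a chromatin architectural protein gene (r = 0.993), Scin, which encodes an actin-severing protein (r = 0.991), and Coro2a, a coronin gene (r = 0.990), out of 15521 genes compared. Like Nuak1 ran Ccr6, a chemokine receptor gene (r = 0.993), Uchl1, a ubiquitin hydrolase gene (r = 0.991), and Gnpda2, an amino sugar enzyme gene (r = 0.990). The difference between the groups enters these correlations. With each group centred on its mean they were 0.964 to 0.981 for Nuak2 and 0.967 to 0.976 for Nuak1. SCC replicate 2 made up 70.9% of the centred variance of Nuak2, and SCC replicates 2 and 5 made up 31.1% and 54.9% of that of Nuak1. Without both arrays, a choice made after seeing the data, the centred values were 0.528 to 0.866 for Nuak2 and 0.738 to 0.837 for Nuak1. All genes compared share the same arrays and normalization.

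**Figure D4:**
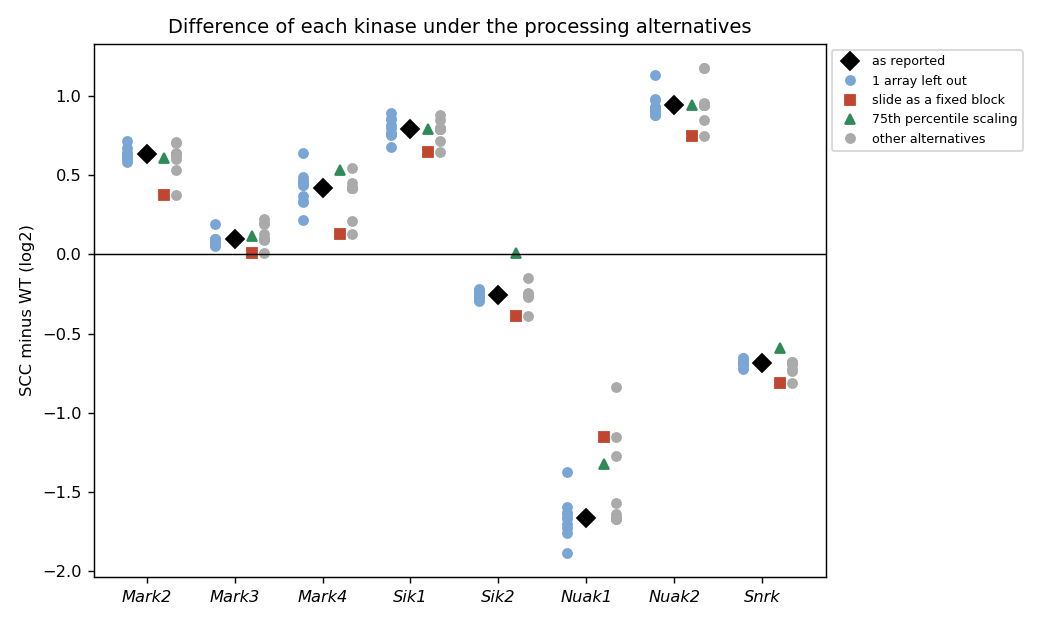
Difference between SCC and WT (y axis, log2) of each kinase as reported (black diamonds), with 1 array left out (light blue), with slide as a fixed block (red squares), with 75th percentile scaling (green triangles) and under the other processing alternatives, the within-slide values among them (grey). Sik2 was the one kinase to cross 0, at 0.0085 with 75th percentile scaling.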

How the data were processed

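Total RNA of 5 WT lungs and 5 SCC had been labelled with Cy3 and hybridised to single-colour Agilent whole-mouse arrays. The authors read the scans with Agilent Feature Extraction (version 12.0.0.7 per the file headers), and the deposited scanner files give every spot's background-subtracted processed intensity, its median intensity and its flags. The authors also deposited log2 values, which followed the processed intensities after quantile normalization (r of at least 0.9999 on every array) and served as an alternative.

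Control and outlier spots were left out, spots of a probe averaged, and log2 intensities quantile-normalized, as the methods state. A probe was tested if well above background on at least 4 of 5 arrays of a group. All 10 arrays entered 1 two-sided fit without covariates, made with lmFit and eBayes of limma 3.58.1 (R 4.3.3) and adjusted by Benjamini-Hochberg over 30374 probes, in place of the methods' analysis of variance. The fit was also run on simulated data with independent normal values and few changed probes. That setting lacked the slides, the deviating SCC arrays and the large share of changed probes of these data. Single genes were also compared by exact two-sided permutation over 252 splits of the arrays, or 126 for Mark2 with its 4 SCC values. A fold against a group with no array well above background is a bound against the per-array detection floor. The number of arrays limits precision.

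Accessions were paired with symbols through RefSeq genes (GRCm38.p6), which gave 28223 of 41174 probes (68.5%) a symbol, and 7 of the 10 kinases had a promoter entry. The kinases, pathway lists and markers were chosen with earlier results of these data known. Genes named were all kinases, pathway genes that passed with a 2-fold difference, Stk11, Prkaa1, Prkaa2, and the 3 genes most correlated with the kinase that rose most and the one that fell most. Other pathway genes were named with their values known, where a count was small or probes disagreed. Alternatives were 75th percentile scaling, the deposited log2 values, normexp (offset 50, on median spot signal), other filters, slide and replicate blocks, array weights, the methods' t-test (their analysis of variance with 2 groups), the mean of a gene's probes and leaving arrays out. Same-numbered WT and SCC replicates did not deviate together (r from -0.103 to 0.0087), so the numbers do not pair the samples. Of the other marker lists, alveolar type 1 had 1 gene higher and 2 lower, club cell 2 lower, ciliated cell 1 lower, fibroblast 2 higher and 1 lower, smooth muscle 2 lower, macrophage 2 higher and 1 lower, T cell 1 lower, B cell 3 lower and neural 1 lower.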

Additional observations from a re-analysis of the deposited data

Results flagged for a closer look

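For the 12 probes of the kinases and the brightest probe of each of the 48 tested pathway genes, the highest and the lowest array of each group were set against the others by the gap to the nearest of them, as a share of the whole range of the group. By chance about 1 group in 20 shows a gap this wide. Of 120 groups examined, 13 did, 9 of them on SCC replicate 2, 2 on SCC replicate 5, 1 on SCC replicate 3 and 1 on a WT array.

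Of the kinases, Nuak2 read 10.31 on SCC replicate 2 and 11.12 to 11.33 on the other SCC arrays (gap 0.80 of the range), and the brightest Mark3 probe read 12.55 against 12.95 to 13.11 (gap 0.72). Of the pathway genes lowest on that array, Melk read 8.84 against 11.12 to 11.94 (gap 0.736), Cab39 read 11.91 against 12.54 to 12.68 (gap 0.823) and Pard3 read 11.48 against 11.90 to 12.04 (gap 0.748). Of those highest on it, Nim1k read 9.03 against 7.79 to 7.88 (gap 0.926), Pde4d read 10.25 against 9.19 to 9.39 (gap 0.815), Prkab1 read 12.91 against 11.85 to 12.14 (gap 0.726) and Nr4a2 read 12.24 against 10.96 to 11.33 (gap 0.716).

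On SCC replicate 5, Prkag3 was the highest at 8.48 against 4.16 to 4.70 (gap 0.875) and Prkag2 the lowest at 8.22 against 8.70 to 8.80 (gap 0.823). Prkci was highest on SCC replicate 3, at 13.01 against 12.63 to 12.71 (gap 0.787). Prkag1 was lowest on WT replicate 1, at 12.54 against 12.70 to 12.76 on the other WT arrays (gap 0.744).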

How the results depend on the processing

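The direction of every measured kinase held under every alternative, except Sik2, at 0.0085 (adjusted p = 0.982) with 75th percentile scaling. That scaling moved the median of all tested probes from -0.09 to 0.03 and the share of 2-fold calls that were higher from 43.3% to 53.2%. With slide as a fixed block, 1 kinase passed, and Mark2 was at 0.376, Sik1 at 0.646, Sik2 at -0.391, Nuak1 at -1.15 and Nuak2 at 0.749. That fit rests on slide 2, which holds 1 WT array. The kinase values within slide 2 were 0.376 for Mark2, -0.391 for Sik2 and -0.809 for Snrk. The block also left 2989 2-fold calls and 3814 at the adjusted p alone, and 4 pathway genes higher and 6 lower. Normexp gave 3969 2-fold calls against 6954 and took Sik2 to -0.152, which did not pass. Without a filter on dim probes Sik2 stayed at -0.257 (adjusted p = 0.0569), where more probes enter the adjustment. The replicate block, which no label calls for, gave Sik2 at -0.257 (adjusted p = 0.0956) and changed no other kinase call. Array weights brought Mark3 to 0.198 and Mark4 to 0.545, both passing, as did leaving out SCC replicates 2 and 5, at 0.221 and 0.449. With 1 array left out, Sik2 ranged from -0.296 to -0.218 and lost its call in 8 of 10 fits, Mark3 ranged from 0.052 to 0.192 and Mark4 from 0.219 to 0.639, both passing without SCC replicate 2, and 2-fold calls ranged from 6385 to 8135. In those fits Mark2 ranged from 0.582 to 0.718, Sik1 from 0.680 to 0.894, Nuak1 from -1.88 to -1.37, Nuak2 from 0.878 to 1.13 and Snrk from -0.725 to -0.651, all passing. The methods' t-test gave 5867 probes at the threshold of the study's array gene list, 2-fold and an unadjusted p under 0.01, and 6525 after Benjamini-Hochberg adjustment with a 2-fold difference. Mark2 had no value under the strict filter, its flagged spot counting as not measured. Where no cause is given it was not tested.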

Other observations

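The brightest Sfn probe, for the 14-3-3 protein of stratified epithelia, rose by 0.78, while its dimmer probe rose by 5.81, reading from 5.91 to 6.33 on WT arrays and from 8.72 to 12.97 on SCC arrays. The lowest of those SCC values was on replicate 2. All 3 probes of Mapt fell: the dimmer ones read from 12.86 to 13.19 and from 12.03 to 12.31 on WT arrays, and from 7.94 to 11.03 and from 7.55 to 10.53 on SCC arrays. SCC replicate 2 was the highest of the SCC arrays on each Mapt probe.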
